A study of Homo sapiens with 14 samples.

Results

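The genes described here are 45 interferon-stimulated genes, the guanylate-binding protein (GBP) family among them, chosen by symbol from the 58219 genes counted. All 45 were found in the count table, DDX58 (RIGI in newer annotations) included, and all 45 passed the filter on low counts that left 21032 genes. Their RNA was measured in OVCAR4, an established human cell line of high-grade serous ovarian carcinoma, 72 hours after reverse transfection of 300000 cells with 120 nM of small interfering RNA (siRNA), with a change of medium at 24 hours. There were 14 libraries, 2 in each of 7 groups. As controls, siNT1 and siNT2 were given 2 different non-targeting pools. The knockdown groups siPAX8, siSOX17, siMECOM and siWT1 were each given the pool for the gene in their name, and siDual was given those for PAX8 and SOX17 at once, and the labels do not say how the dose was divided between them. Each targeting group used 1 siRNA pool for its gene, and nothing was added to induce interferon signalling as far as the labels say. The labels number the libraries as replicates without saying whether they came from separate transfections, so the p-values measure the spread between these libraries, which may be technical.

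Interferons are secreted proteins that bind receptors on the cell surface. The receptor kinases JAK1 and TYK2 then activate the complex ISGF3, of which STAT2 and IRF9 are subunits and which binds interferon-stimulated response elements in the promoters of responding genes. Interferon gamma acts instead through gamma-activated sites, and GBP genes respond strongly to it. The products of these genes sense foreign RNA, degrade or sequester viral RNA, block virus entry and budding, conjugate the ubiquitin-like protein ISG15, or attack intracellular vacuoles, and cells keep a basal level of many of them without added interferon.

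The promoters show what these genes share in sequence. RefSeq windows of 300 bases (250 before to 50 after the gene start, GRCh38.p14) were matched for 36 of the 45 genes. IRF7, IFIT2, OAS2, OASL, MX2, GBP2, GBP5, USP18 and TRIM22 had no window. The response element core, which is GAAA, any 2 bases and GAAA, was searched on both strands and lay in 24 of the 36 windows (66.7%), beside 3.57% of all 35116 windows in the table. The gamma-activated site core TTCNNNGAA, which reads the same on both strands and can overlap the first motif, lay in 12 of them (33.3%), beside 7.66% of all windows. Of the 15 members that changed at least 2-fold in a knockdown, 10 had a window and 6 of these held the response element core. Those 6 windows are printed because they hold the motif and their genes changed at least 2-fold, in either direction. Capitals mark that core or its reverse complement, TTTC, any 2 bases and TTTC. They are shown 5′ to 3′ on the gene's strand and lie at chr1:89022817-89023116 (GBP3), chr1:89065159-89065458 (GBP1), chr1:89198893-89199192 (GBP4), chr7:93117930-93118229 (SAMD9), chr4:168480443-168480742 (DDX60L) and chr4:88456869-88457168 (HERC5), the last on the plus strand and the others on the minus strand. A match is a description of the letters and not a measured binding site.
GBP3: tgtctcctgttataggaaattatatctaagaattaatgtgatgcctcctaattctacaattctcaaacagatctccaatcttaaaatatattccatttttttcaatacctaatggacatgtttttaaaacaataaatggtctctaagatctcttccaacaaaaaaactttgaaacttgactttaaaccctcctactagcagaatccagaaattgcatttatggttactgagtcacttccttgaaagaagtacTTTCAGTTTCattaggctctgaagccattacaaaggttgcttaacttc
GBP1: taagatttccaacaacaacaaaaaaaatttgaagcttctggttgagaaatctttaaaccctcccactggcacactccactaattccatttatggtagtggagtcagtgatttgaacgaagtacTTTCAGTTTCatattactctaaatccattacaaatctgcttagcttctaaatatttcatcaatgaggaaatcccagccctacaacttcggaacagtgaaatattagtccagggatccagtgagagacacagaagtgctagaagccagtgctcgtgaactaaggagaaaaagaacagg
GBP4: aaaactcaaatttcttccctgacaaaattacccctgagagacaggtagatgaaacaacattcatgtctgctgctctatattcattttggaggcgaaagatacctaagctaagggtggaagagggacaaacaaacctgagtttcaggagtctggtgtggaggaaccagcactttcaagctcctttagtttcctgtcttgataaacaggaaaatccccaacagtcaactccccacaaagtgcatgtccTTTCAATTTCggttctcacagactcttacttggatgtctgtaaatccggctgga
SAMD9: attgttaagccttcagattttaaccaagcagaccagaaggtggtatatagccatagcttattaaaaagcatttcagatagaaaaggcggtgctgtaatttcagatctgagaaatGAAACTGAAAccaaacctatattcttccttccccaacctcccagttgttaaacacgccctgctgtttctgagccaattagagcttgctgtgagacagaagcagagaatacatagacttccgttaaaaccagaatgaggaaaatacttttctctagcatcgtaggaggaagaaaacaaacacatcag
DDX60L: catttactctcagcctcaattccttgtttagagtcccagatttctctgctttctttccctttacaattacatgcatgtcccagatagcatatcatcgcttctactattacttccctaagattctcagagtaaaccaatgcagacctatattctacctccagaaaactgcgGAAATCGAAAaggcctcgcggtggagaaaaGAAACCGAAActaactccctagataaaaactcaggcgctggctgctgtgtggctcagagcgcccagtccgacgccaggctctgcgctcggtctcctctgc
HERC5: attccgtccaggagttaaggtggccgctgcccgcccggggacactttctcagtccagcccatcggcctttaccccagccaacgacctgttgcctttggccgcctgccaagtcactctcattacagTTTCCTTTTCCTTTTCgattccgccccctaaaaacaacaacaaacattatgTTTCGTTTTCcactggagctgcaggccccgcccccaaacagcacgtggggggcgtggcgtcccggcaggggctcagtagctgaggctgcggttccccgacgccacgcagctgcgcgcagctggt
GBP1 and GBP3 carried the same 10 bases, TTTCAGTTTC, 127 bases before and 2 bases into the start, respectively. The RefSeq start of DDX60L lies inside the longer gene that the counts use, which begins at 168537786 on chromosome 4.

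The libraries held 40832825 to 49803860 counts. Levels are given as CPM (counts scaled to a common library size) on normalised library sizes, and differences as log2 fold changes ± SE from the quasi-likelihood test of edgeR, Benjamini-Hochberg adjusted over the 21032 genes, and a gene is called at an adjusted p under 0.05. PAX8 fell in siPAX8 (-2.52 ± 0.08) and siDual (-1.98 ± 0.08), SOX17 in siSOX17 (-2.94 ± 0.11) and siDual (-2.72 ± 0.11), and MECOM in siMECOM (-3.36 ± 0.16). WT1 held 75 counts in the 4 control libraries together and 1 in siWT1, so the siWT1 target was near the detection limit in the controls. MECOM also fell in siSOX17 (-1.54 ± 0.14) and siDual (-1.398 ± 0.14), and SOX17 rose in siMECOM (1.05 ± 0.09). PAX8 fell in siWT1 (-0.83 ± 0.07, adjusted p = 4.48e-08) and rose in siSOX17 (0.400 ± 0.07), and SOX17 fell in siPAX8 (-0.46 ± 0.09). Genes of the mitochondrial chromosome took 5.34 to 6.13% of the counts in the controls and 7.91 to 11.0% in the 10 knockdown libraries. With those genes left out of the library sizes, the members called numbered 26, 27, 33, 32 and 18 in siPAX8, siSOX17, siDual, siMECOM and siWT1. The labelled cell type was checked against epithelial and serous markers: keratin KRT7 averaged 1598 CPM in the controls and PAX8 204.8, while WT1 and MSLN, often high in serous carcinoma, were under 1 CPM. Of 11 leukocyte markers, 10 were under 1 CPM in the controls, and CD2, MS4A1 and TYROBP were at 0. Their summed level was 19.1 to 22.9 CPM in the controls, 34.8 to 44.7 CPM in siPAX8, siSOX17 and siDual and 10.4 to 13.2 CPM in siMECOM and siWT1, and CD68, a lysosomal protein gene, made up 20.2 CPM of it in the controls. Of 10 fibroblast and endothelial markers, 6 were under 1 CPM in the controls. Their sum, of which COL1A1 made up 37.9 CPM in the controls, was 44.6 to 54.2 CPM there, 68.1 to 90.2 in siPAX8, siSOX17 and siDual and 32.1 to 36.2 in siMECOM and siWT1. The 13 epithelial and serous markers, the keratin genes KRT7, KRT8 and KRT18 among them, summed to 4635 to 5421 CPM in the controls. Their sum was 8739.6 to 11096 in siPAX8, 13397 to 13636 in siSOX17 and 18443 to 21105 in siDual. It was 5405 to 6124 in siMECOM and 4149 to 4385 in siWT1. The 13 did not all move alike: in siPAX8 KRT8 rose (1.42 ± 0.11) and CDH6 fell (-1.58 ± 0.08). The part of the mitochondrial share and of these marker levels in the results was not tested.

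The 2 non-targeting pools were compared first. None of the 45 genes was called between siNT1 and siNT2 by edgeR's quasi-likelihood test. Of all genes tested, 0.3% were called (0.242% higher in siNT1 and 0.0571% lower). In the same test 10 of the 45 had an unadjusted p under 0.05, beside 1608 of all 21032 genes. The smallest adjusted p of the 45 was 0.199. DESeq2 also called 0, the fit without a filter on low counts called 2, and the fit with replicate as a block called 1. Within groups, replicate 1 was above replicate 2 in 35 of the 45 genes in siNT1, 34 in siMECOM, 33 in siSOX17 and 31 in siDual, and in 8 of them in siNT2. Of all genes tested, 46.7 to 52.5% were higher in replicate 1. The median log2 difference of the members, replicate 1 less replicate 2, was 0.14 in siNT1 and -0.09 in siNT2, so the control pools shifted in opposite directions. It was 0.005 in siPAX8, 0.15 in siSOX17, 0.09 in siDual, 0.11 in siMECOM and -0.04 in siWT1. The part of these shifts in the group differences was not tested.

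Every knockdown changed a part of the list, and the directions were mixed. Against the 4 control libraries, 15 of 45 genes rose and 11 fell in siPAX8, where 26.9% and 25.4% of all genes did (52.2% together). In siSOX17 19 rose and 8 fell (27.2% and 25.5% of all genes, 52.6% together), and in siDual 14 rose and 18 fell (28.9% and 27.3%, 56.2% together). In siMECOM 26 rose and 6 fell, beside 16.5% and 16.1% of all genes (32.6% together). In siWT1 9 rose and 9 fell, beside 17.7% and 19.8% (37.5% together). In percent of the members, 33.3 rose in siPAX8, 42.2 in siSOX17, 31.1 in siDual, 57.8 in siMECOM and 20 in siWT1. The shares that fell were 24.4, 17.8, 40, 13.3 and 20 in the same order. Read against the background, the shares in siWT1 were near it in both directions. More members than background rose in siSOX17 and siMECOM, and more fell in siDual. In siPAX8 the rising share was slightly above and the falling share near it. The median log2 fold change of the members was -0.06, 0.19, -0.03, 0.44 and 0.01 in the same order, and that of all genes lay within 0.01 of 0 in each. Leaving out siMECOM replicate 1 reduced the 26 genes that rose there to 17, and leaving out siMECOM replicate 2 reduced the 6 that fell to 3. Without siDual replicate 2, 10 genes fell in siDual in place of 18. Without siSOX17 replicate 2, 4 fell in siSOX17 in place of 8. Since these are bulk RNA measurements, fewer expressing cells and less RNA per cell cannot be told apart. All 5 comparisons use the same 4 control libraries, so their values are given side by side and are not independent of each other.

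**Figure D1:**
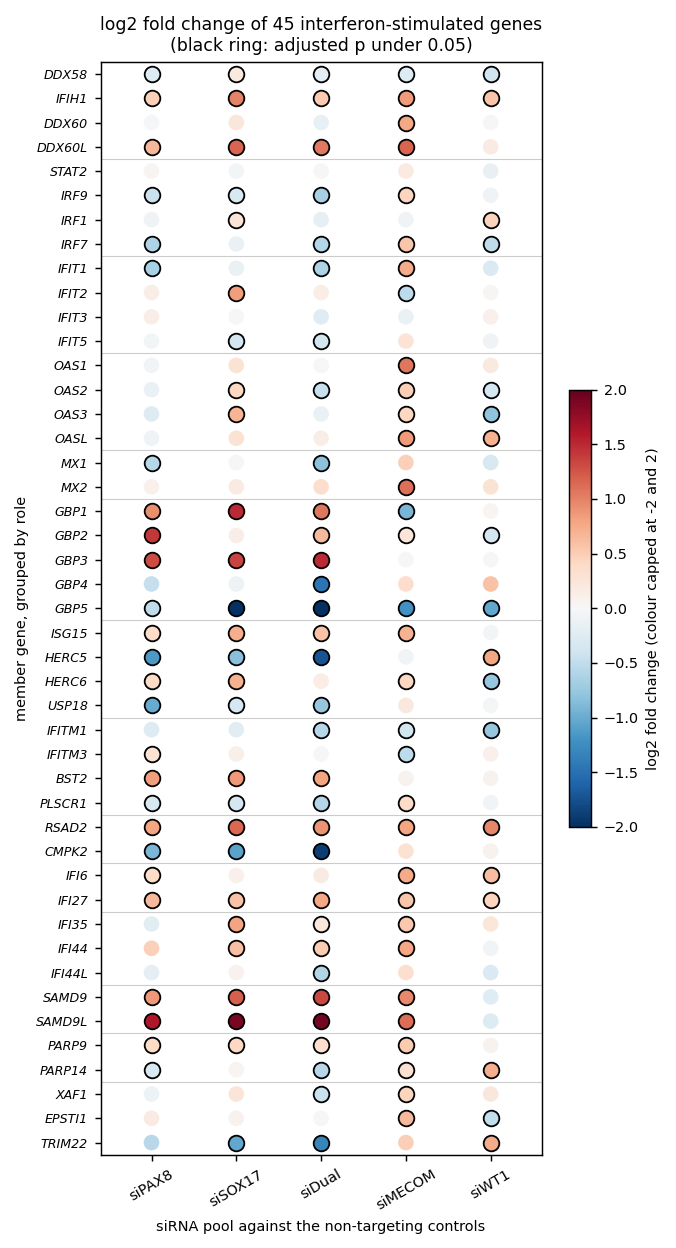
Log2 fold change of each of the 45 genes (rows, grouped by role) in the 5 knockdown groups against the 4 control libraries (columns). Colour runs from blue (lower) to red (higher) and is capped at -2 and 2, and a black ring marks an adjusted p under 0.05; the siMECOM column has 26 ringed rises and the siWT1 column 9.

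Basal levels differed widely. On a scale that also divides by gene length (RPKM), the highest members in the controls were IFITM3 (456), which blocks fusion of entering viruses, ISG15 (149), the ubiquitin-like modifier, IFI6 (139), a regulator of apoptosis and viral replication, IFITM1 (92.6), a relative of IFITM3, and BST2 (33.1), which tethers budding viruses. At the other end stood GBP4 (0.0522) and MX2 (0.0408). IFITM3 held 699.7, 646, 516 and 598 CPM in the controls, 830.5 and 667 in siPAX8, 679 and 654 in siSOX17, 646 and 556 in siDual, 482 and 369 in siMECOM and 621 and 688 in siWT1. Both siMECOM libraries lay below all 4 controls, a log2 fold change of -0.52 ± 0.11 (adjusted p = 0.000971). In siPAX8 it had 0.29 ± 0.11, with overlapping libraries. IFITM1 held 122, 103, 81.2 and 93.6 CPM in the controls, 89.1 and 75.9 in siPAX8, 89.3 and 80.3 in siSOX17, 74.96 and 59.3 in siDual, 89.1 and 63.6 in siMECOM and 55.3 and 60.8 in siWT1. It fell most in siWT1 (-0.77 ± 0.12, adjusted p = 6.88e-05) and siDual (-0.56 ± 0.12), with both libraries below every control, and the siMECOM decrease (-0.38 ± 0.12) had overlapping libraries. The IFITM3 calls were lost in siMECOM without siMECOM replicate 2 (-0.35) and in siPAX8 against siNT1 alone (0.15), without siNT1 replicate 2 (0.26), without siNT2 replicate 1 (0.24) and without siPAX8 replicate 1 (0.12). The IFITM1 call in siMECOM was lost against siNT2 alone (-0.20), without siNT1 replicate 1 (-0.32) and without siMECOM replicate 2 (-0.16). IFITM1 shares 32.5% of its exon bases with IFITM2 on the same strand, and 21.3% of those of IFITM3 overlap a noncoding RNA on the opposite strand that held 28 counts in all libraries, so reads of the IFITM genes may be divided between copies.

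BST2 held 46.2, 36.5, 32.4 and 32.9 CPM in the controls, 67.9 and 62.5 in siPAX8, 76.5 and 57.4 in siSOX17 and 70.1 and 58.4 in siDual. These 6 libraries were all above the controls, with log2 fold changes of 0.83 ± 0.12, 0.87 ± 0.12 and 0.81 ± 0.12 (adjusted p = 1.17e-05, 7.26e-06 and 1.45e-05). The 44.4 and 32.4 CPM of siMECOM and 41.1 and 36.4 of siWT1 fell within the control range. PLSCR1, a phospholipid scramblase grouped here with BST2, IFITM1 and IFITM3, was at 77.4, 68.5, 64.1 and 65.3 CPM in the controls. PLSCR1 fell in siPAX8 (-0.34 ± 0.07), siSOX17 (-0.35 ± 0.07) and siDual (-0.59 ± 0.07) but rose in siMECOM (0.38 ± 0.07).

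The GBP genes, which encode GTPases that coat bacterial vacuoles and restrict viruses, moved in opposite directions within the same libraries. GBP5 (ENSG00000154451.14), known for promoting inflammasome assembly and for lowering the infectivity of viral envelopes, held 8.49, 8.598, 6.51 and 6.69 CPM in the controls. It held 5.31 and 5.303 CPM in siPAX8, 0.348 and 0.186 in siSOX17, 0.346 and 0.495 in siDual, 3.08 and 3.43 in siMECOM and 3.77 and 3.504 in siWT1. All 10 knockdown libraries lay below all controls, and the siSOX17 and siDual libraries lay furthest below. GBP5 fell 27.6-fold in siSOX17 (log2 -4.79 ± 0.21, adjusted p = 1.08e-12) and 17.5-fold in siDual (-4.13 ± 0.19, adjusted p = 1.24e-12), on 21 and 35 counts against 1429 in the controls. The decreases in siMECOM (-1.203 ± 0.13) and siWT1 (-1.04 ± 0.13) were about 2-fold. The smaller one in siPAX8 (-0.501 ± 0.12, adjusted p = 0.0019) lost its call against siNT2 alone (-0.31).

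GBP1, the most abundant GBP per length in the controls (12.9 RPKM), moved the other way. It held 66.02, 63.6, 59.7 and 68.01 CPM in the controls, 123 and 124 in siPAX8, 181 and 181 in siSOX17, 122 and 147 in siDual, 34.5 and 33.9 in siMECOM and 67.7 and 64.05 in siWT1. The siPAX8, siSOX17 and siDual libraries were above all controls, the siMECOM libraries below all of them, and the siWT1 libraries among them. GBP1 rose 2.82-fold in siSOX17 (1.49 ± 0.07, adjusted p = 6.46e-12), by 0.94 ± 0.07 in siPAX8 and by 1.06 ± 0.07 in siDual, and its level fell 1.88-fold in siMECOM (-0.91 ± 0.08, adjusted p = 6.66e-08). GBP3, its near neighbour and close relative, held 14.6, 15.1, 15.3 and 18.5 CPM in the controls, 38.5 and 39.8 in siPAX8, 39.4 and 41.3 in siSOX17 and 42.3 and 47.2 in siDual. It rose 2.47-fold, 2.546-fold and 2.82-fold (log2 1.305 ± 0.09, 1.35 ± 0.09 and 1.498 ± 0.09), while its 14.1 and 17.7 CPM in siMECOM and 16.1 and 15.1 in siWT1 overlapped the controls. How the counting treated reads shared by GBP1 and GBP3 is not given in the sources used here.

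GBP2 was highest in siPAX8. It held 22.2, 20.4, 25.2 and 28.1 CPM in the controls and 62.6 and 63.8 in siPAX8, a 2.65-fold increase (1.41 ± 0.08, adjusted p = 3.33e-11). In siSOX17 it held 28.03 and 24.1 CPM, within the control range, and in siDual 36.2 and 38.1 (0.64 ± 0.08), above the controls and below siPAX8. In siMECOM it held 29.2 and 28.02 CPM and in siWT1 20.1 and 16.8. Those 2 differences were small, 0.26 ± 0.09 and -0.37 ± 0.09. The first call was lost with no filter on low counts (0.22), against siNT2 alone (0.10), without siNT1 replicate 2 (0.23), without siNT2 replicate 1 (0.22), without siMECOM replicate 1 (0.23) and without siMECOM replicate 2 (0.29), and the second against siNT1 alone (-0.21) and without siWT1 replicate 2 (-0.25). GBP4 was near the detection limit, at 0.542, 0.274, 0.2004 and 0.264 CPM in the controls and 0.0532 and 0.158 in siDual (-1.45 ± 0.55, adjusted p = 0.0308, on 9 counts), and that call was lost against siNT2 alone (-1.06), with DESeq2 (-1.49), without siNT1 replicate 1 (-1.19), without siNT2 replicate 2 (-1.38) and without siDual replicate 1 (-0.94). Its levels in the other knockdowns, among them 0.286 and 0.632 CPM in siWT1, were not called.

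**Figure D2:**
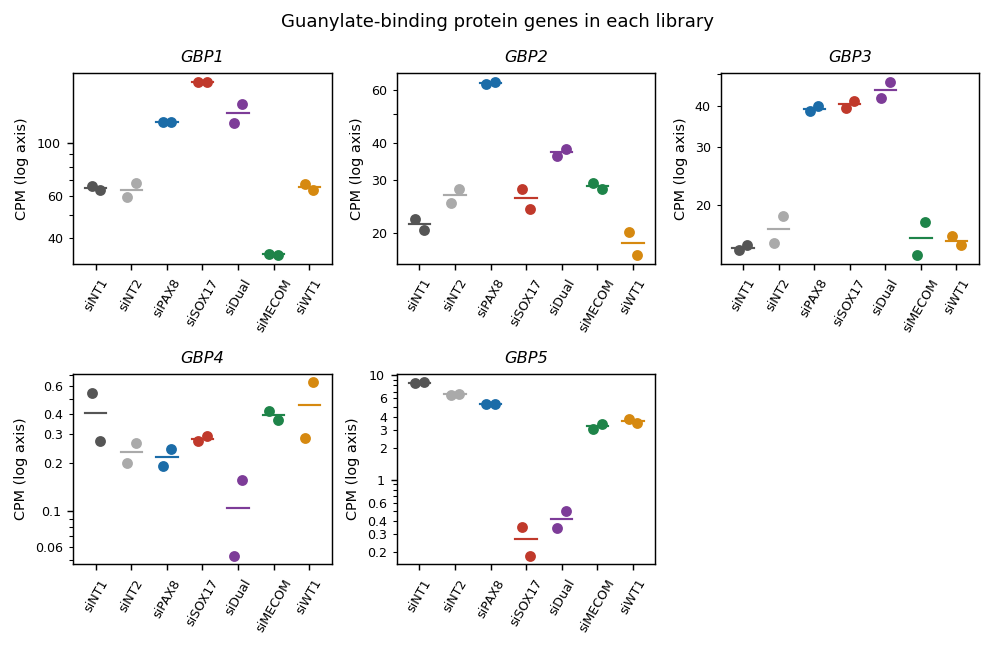
CPM (log axis) of 5 GBP genes in each of the 14 libraries, 2 points per group, with a line at the group mean. GBP5 is lowest in siSOX17 and siDual, where GBP1 and GBP3 are above every control library, and GBP2 is highest in siPAX8.

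Among the RNA sensors, IFIH1 rose in each of the 5 knockdowns. IFIH1, which encodes MDA5, a sensor of long double-stranded RNA, held 15.96, 17.2, 15.1 and 16.5 CPM in the controls. It held 22.2 and 22.6 CPM in siPAX8, 33.01 and 31.6 in siSOX17, 24.8 and 22.03 in siDual, 29.96 and 28.3 in siMECOM and 22.7 and 25.4 in siWT1, and all 10 knockdown libraries were above all controls. Its log2 fold changes were 0.47 ± 0.08, 0.997 ± 0.08, 0.53 ± 0.08, 0.84 ± 0.08 and 0.57 ± 0.08 (largest adjusted p = 6.73e-05, in siPAX8). DDX58, which encodes RIG-I, the sensor of short RNA with a triphosphate end, changed less. It held 50.5, 50.3, 53.6 and 57.9 CPM in the controls and fell in siWT1 to 40.9 and 39.7 CPM (-0.397 ± 0.07, adjusted p = 0.000254). Smaller falls were called in siPAX8 (-0.27), siDual (-0.21) and siMECOM (-0.27), and a rise in siSOX17 (0.19). These smaller falls lost their call against siNT1 alone (-0.19, -0.13 and -0.19 in that order). They also lost it without siPAX8 replicate 1 (-0.23), siDual replicate 2 (-0.15) and siMECOM replicate 2 (-0.24), respectively. The rise lost its call with no filter on low counts (0.17), against siNT2 alone (0.12) and in 4 of the fits that left out 1 library.

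DDX60L, a helicase related to the sensor cofactor DDX60, held 6.98, 7.45, 7.11 and 7.66 CPM in the controls. It held 10.5 and 12.6 CPM in siPAX8, 15.8 and 16.9 in siSOX17, 15.6 and 14.6 in siDual and 15.5 and 17.3 in siMECOM, all above the controls, while the 9.28 and 7.104 CPM of siWT1 overlapped them. It rose 2.24-fold, 2.07-fold and 2.25-fold in siSOX17, siDual and siMECOM (log2 1.16 ± 0.11, 1.05 ± 0.11 and 1.17 ± 0.11) and by 0.66 ± 0.11 in siPAX8. DDX60 itself was called in siMECOM alone among the control comparisons, at 22.3 and 20.6 CPM against 16.4, 12.96, 11.02 and 10.5 (0.77 ± 0.10, adjusted p = 8.97e-06).

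The transcription factors of the pathway changed little, with no difference of 2-fold. STAT2, a subunit of ISGF3, was not called in any knockdown, with 21.4 to 26.9 CPM in the controls. IRF9, which gives ISGF3 its DNA specificity, held 10.7, 9.58, 9.32 and 9.73 CPM in the controls and 13.3 and 13.4 in siMECOM, where it rose (0.45 ± 0.10, adjusted p = 0.00181). It held 7.22 and 7.13 CPM in siPAX8 and 6.23 and 6.098 in siDual, where it fell (-0.45 ± 0.11 and -0.67 ± 0.11). It also fell in siSOX17 (-0.33 ± 0.11), a call lost against siNT2 alone (-0.28) and without siSOX17 replicate 2 (-0.16). IRF9 shares 48.4% of its exon bases with AL136295.5, a gene on the same strand that held more counts, so their reads may be mixed. IRF7, the factor that amplifies interferon production, held 20.4, 15.6, 12.7 and 18.7 CPM in the controls and 26.04 and 23.1 in siMECOM (0.55 ± 0.14), where both libraries were above the controls. It held 11.4 and 10.3 in siPAX8 (-0.62 ± 0.15), where both were below. Its siMECOM call was lost without siMECOM replicate 1 (0.46). It also fell in siDual (-0.58 ± 0.15), a call lost without siDual replicate 2 (-0.34), and in siWT1 (-0.51 ± 0.15), a call lost against siNT2 alone (-0.41), without siNT2 replicate 2 (-0.35) and without siWT1 replicate 1 (-0.43). IRF1, the factor of the gamma response, rose in siWT1 from 25.7, 24.99, 26.1 and 29.9 to 35.9 and 37.8 CPM (0.47 ± 0.07, adjusted p = 6.28e-05), and in siSOX17 (0.28 ± 0.08), a call lost against siNT2 alone (0.20) and without siSOX17 replicate 1 (0.21).

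OAS1, OAS2 and OAS3 encode synthetases that make a second messenger on binding double-stranded RNA, and OASL is listed with them as a relative. Each of these 4 OAS genes rose in siMECOM. OAS1 held 10.4, 8.42, 8.36 and 8.54 CPM in the controls and 20.5 and 17.05 in siMECOM, a 2.11-fold increase (1.07 ± 0.12, adjusted p = 1.31e-06) with no overlap. Its 8.88 and 8.11 CPM in siPAX8, 12.3 and 9.52 in siSOX17, 9.66 and 7.97 in siDual and 9.16 and 11.2 in siWT1 were not called. OAS3, the most abundant of the 4 per length (9.74 RPKM), held 93.4, 92.9, 54.8 and 80.4 CPM in the controls, a wide spread among controls. It rose in siSOX17 to 116 and 138 CPM (0.68 ± 0.11) and in siMECOM to 108 and 107 (0.44 ± 0.12), and it fell in siWT1 to 41.5 and 49.4 (-0.804 ± 0.12, adjusted p = 3.85e-05), each without overlap. OAS2 rose in siMECOM by 0.49 ± 0.13 and OASL by 0.86 ± 0.23. OASL also rose in siWT1 (0.71 ± 0.23), a call lost against siNT1 alone (0.71), against siNT2 alone (0.71), without siNT1 replicate 2 (0.58), without siNT2 replicate 2 (0.64) and without siWT1 replicate 2 (0.42). OAS2 rose in siSOX17 (0.41 ± 0.13), a call lost against siNT1 alone (0.23) and without siSOX17 replicate 2 (0.37). It fell in siDual (-0.46 ± 0.14), a call lost against siNT2 alone (-0.28) and without siDual replicate 2 (-0.33), and in siWT1 (-0.35 ± 0.13), a call lost with a minimum mean CPM of 1 (-0.34), without mitochondrial genes (-0.34), with only the groups compared in the fit (-0.35), against siNT2 alone (-0.18), without siNT1 replicate 1 (-0.30), without siNT2 replicate 2 (-0.23) and without siWT1 replicate 1 (-0.16). The siMECOM calls were lost for OAS3 against siNT1 alone (0.20), for OAS2 against siNT1 alone (0.31) and without siMECOM replicate 1 (0.37) and for OASL without siMECOM replicate 1 (0.80).

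The IFIT genes, whose products bind viral RNA ends and block translation, moved apart from each other. IFIT2 held 10.7, 9.63, 10.4 and 10.98 CPM in the controls, 20.7 and 16.6 in siSOX17 and 6.96 and 7.52 in siMECOM. It rose in the first (0.84 ± 0.11, adjusted p = 1.72e-06) and fell in the second (-0.53 ± 0.12, adjusted p = 0.0016), with no overlap. IFIT1 had the opposite sign in siMECOM, where it held 25.8 and 18.5 CPM against 13.9, 10.1, 17.2 and 12.3 in the controls (0.73 ± 0.16, adjusted p = 0.00182), a call lost without siMECOM replicate 1 (0.47). In siPAX8 it held 9.03 and 7.999 CPM (-0.64 ± 0.18), a call lost against siNT1 alone (-0.49) and without siPAX8 replicate 2 (-0.56), and in siDual it had -0.61 ± 0.18, a call lost against siNT1 alone (-0.46) and without siDual replicate 2 (-0.41). IFIT3 was not called in any knockdown, with 16.8 to 19.4 CPM in the controls, and the decreases of IFIT5 in siSOX17 and siDual were under 0.40 in size. Of the MX GTPases, which trap viral nucleocapsids, MX1 spread from 64.1 to 104 CPM over the controls and fell in siDual to 55.5 and 32.99 CPM (-0.81 ± 0.20, adjusted p = 0.00205), a call lost without siDual replicate 2 (-0.48). It also fell in siPAX8 (-0.58 ± 0.20), a call lost against siNT2 alone (-0.42), with DESeq2 (-0.57), without siNT1 replicate 1 (-0.42) and without siPAX8 replicate 2 (-0.38). MX2 held 0.754, 0.4299, 0.461 and 0.484 CPM in the controls, 1.34 and 0.916 in siMECOM and 0.958 and 0.405 in siDual. It rose 2.14-fold in siMECOM (1.09 ± 0.29, adjusted p = 0.00703), a call lost without siMECOM replicate 1 (0.80).

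**Figure D3:**
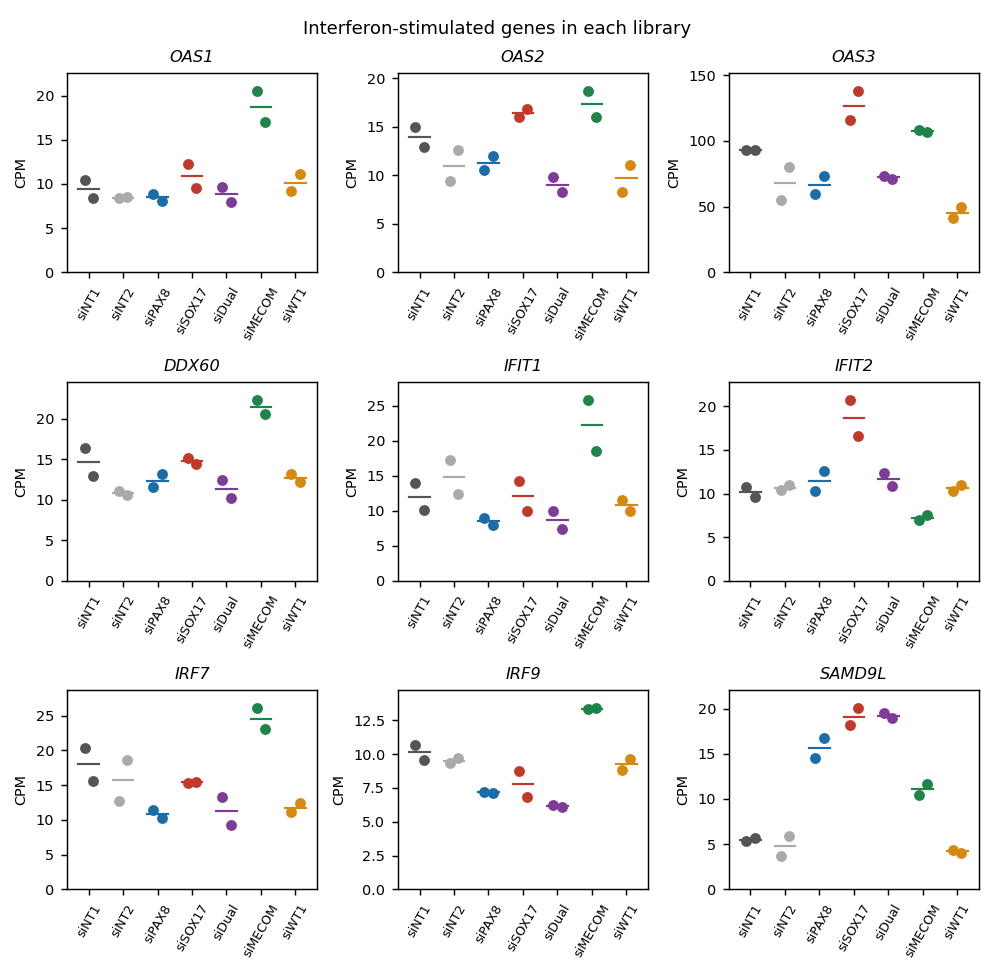
CPM (linear axes from 0) of 9 members in each of the 14 libraries, 2 points per group, with a line at the group mean. OAS1, DDX60, IRF7 and IRF9 are highest in siMECOM, IFIT2 is highest in siSOX17 and lowest in siMECOM, and SAMD9L is above every control library in siPAX8, siSOX17, siDual and siMECOM.

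Genes of ISG15 conjugation did not move as a unit. ISG15 itself held 169, 132, 116 and 143 CPM in the controls, 196 and 166 in siPAX8, 241 and 221 in siSOX17, 225 and 193 in siDual, 260.1 and 193 in siMECOM and 135 and 134 in siWT1. All libraries of siSOX17, siDual and siMECOM were above the controls, with log2 fold changes of 0.73 ± 0.12, 0.58 ± 0.12 and 0.698 ± 0.12. The rise in siPAX8 (0.38 ± 0.12) had overlapping libraries, and its call was lost against siNT1 alone (0.27), without siNT1 replicate 2 (0.29) and without siPAX8 replicate 1 (0.25). The ligase HERC5, which attaches ISG15 to new proteins, held 8.23, 8.598, 8.24 and 9.396 CPM in the controls. It held 3.87 and 3.899 CPM in siPAX8, 4.35 and 5.33 in siSOX17, 2.32 and 2.83 in siDual, 7.79 and 8.51 in siMECOM and 13.8 and 15.9 in siWT1. The first 3 groups were below all controls and siWT1 was above them. HERC5 fell 3.33-fold in siDual (-1.73 ± 0.13, adjusted p = 1.94e-09), 2.22-fold in siPAX8 (-1.15 ± 0.12) and 1.78-fold in siSOX17 (-0.83 ± 0.12), and it rose in siWT1 (0.79 ± 0.11, adjusted p = 8.97e-06).

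HERC6, the relative of HERC5 beside it on chromosome 4, had the opposite sign in siPAX8 (0.39 ± 0.11), siSOX17 and siWT1. It held 9.36, 10.2, 7.59 and 10.2 CPM in the controls, 14.1 and 16.4 in siSOX17 (0.71 ± 0.11) and 5.35 and 5.55 in siWT1 (-0.77 ± 0.12, adjusted p = 3.72e-05), both without overlap, and it also rose in siMECOM (0.43 ± 0.11). USP18, which removes ISG15 and also damps the interferon receptor, held 15.6, 15.1, 18.3 and 18.5 CPM in the controls and 9.004 and 7.75 in siPAX8, 14.9 and 11.5 in siSOX17, 9.77 and 9.95 in siDual, 21.9 and 16.95 in siMECOM and 16.3 and 16.4 in siWT1. It fell 2.001-fold in siPAX8 (-1.001 ± 0.12, adjusted p = 6.73e-07) and 1.702-fold in siDual (-0.77 ± 0.12), with no overlap. It fell less in siSOX17 (-0.35 ± 0.11), a call lost against siNT1 alone (-0.22) and without siSOX17 replicate 2 (-0.17).

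RSAD2 and CMPK2 overlap at their starts on opposite strands of chromosome 2 and make and use an unusual nucleotide that ends viral RNA chains: CMPK2 supplies the substrate and RSAD2 (viperin) converts it. RSAD2 held 1.86, 1.39, 1.54 and 1.83 CPM in the controls, 2.48 and 3.23 in siPAX8, 4.204 and 3.104 in siSOX17, 3.99 and 2.21 in siDual, 3.08 and 2.61 in siMECOM and 3.16 and 3.35 in siWT1. All 10 knockdown libraries were above all controls. It rose 2.22-fold in siSOX17 (1.15 ± 0.21, adjusted p = 0.000128) and by 0.98 ± 0.21 in siWT1 (adjusted p = 0.000905). The values were 0.79 ± 0.21 in siPAX8, 0.896 ± 0.21 in siDual and 0.79 ± 0.21 in siMECOM, calls lost without siPAX8 replicate 2 (0.59), without siDual replicate 1 (0.42) and without siMECOM replicate 1 (0.66).

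CMPK2 held 2.003, 2.13, 2.104 and 2.35 CPM in the controls, 1.21 and 1.07 in siPAX8, 1.34 and 0.6897 in siSOX17 and 0.612 and 0.54000 in siDual, all below the controls. It fell 1.88-fold, 2.09-fold and 3.73-fold (log2 -0.91 ± 0.22, -1.07 ± 0.23 and -1.899 ± 0.26; adjusted p = 0.0017, 0.00067 and 3.47e-06) in the libraries where RSAD2 was above the controls. Its 3.13 and 2.202 CPM in siMECOM and 2.29 and 2.202 in siWT1 overlapped the controls.

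SAMD9 and SAMD9L, neighbouring genes of chromosome 7 whose products restrict poxviruses and slow cell growth, rose in 4 of the 5 knockdowns. SAMD9L held 5.37, 5.63, 3.67 and 5.88 CPM in the controls. It held 14.5 and 16.8 CPM in siPAX8, 18.2 and 20.03 in siSOX17, 19.5 and 18.9 in siDual, 10.4 and 11.7 in siMECOM and 4.38 and 4.06 in siWT1. The first 4 groups were above all controls and siWT1 overlapped them. The increases were 3.06-fold, 3.73-fold, 3.75-fold and 2.16-fold (log2 1.61 ± 0.13, 1.900 ± 0.13, 1.91 ± 0.12 and 1.11 ± 0.13, largest adjusted p = 1.85e-06). SAMD9 held 9.899, 9.22, 9.298 and 10.8 CPM in the controls, 16.3 and 19.5 in siPAX8, 21.5 and 23.4 in siSOX17, 24.7 and 24.9 in siDual, 18.4 and 19.6 in siMECOM and 7.74 and 8.83 in siWT1. It too was above all controls in the first 4 groups, with log2 fold changes of 0.87 ± 0.09, 1.197 ± 0.09, 1.34 ± 0.09 and 0.96 ± 0.09 (largest adjusted p = 2.49e-07).

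IFI6 held 131, 115, 115 and 121 CPM in the controls, 150.4 and 162 in siPAX8, 154 and 104 in siSOX17, 131 and 139.6 in siDual, 204 and 203 in siMECOM and 174 and 195 in siWT1. Both libraries of siPAX8, siMECOM and siWT1 were above all controls. The siDual libraries were too, but the lower of them only barely (130.98 against 130.67 CPM), and siDual was not called (0.17). IFI6 rose in siMECOM (0.76 ± 0.11, adjusted p = 1.64e-05), siWT1 (0.62 ± 0.11, adjusted p = 0.000138) and siPAX8 (0.38 ± 0.11), the last a call lost without siPAX8 replicate 2 (0.32). IFI27, its relative of the same small hydrophobic family, held 117, 115, 95.9 and 102 CPM in the controls, 171 and 164 in siPAX8, 179 and 141 in siSOX17, 185 and 181 in siDual, 159 and 156 in siMECOM and 142 and 151 in siWT1. All 10 knockdown libraries were above all controls. Its log2 fold changes were 0.65 ± 0.08, 0.58 ± 0.08, 0.78 ± 0.08, 0.56 ± 0.08 and 0.45 ± 0.08. IFI35, which modifies innate signalling, rose in siSOX17 from 18.4, 16.7, 15.3 and 19.4 to 31.9 and 29.02 CPM (0.804 ± 0.09, adjusted p = 6.63e-07) and in siMECOM to 26.9 and 23.8 CPM (0.54 ± 0.09). The smaller rise of IFI35 in siDual (0.23) lost its call in 4 fits that left out 1 library and in 5 other alternatives. IFI44 rose in siMECOM to 4.53 and 4.01 CPM from 3.44, 2.54, 2.67 and 1.54 (0.77 ± 0.19), a call lost against siNT1 alone (0.52) and without siMECOM replicate 1 (0.67). It also rose in siSOX17 (0.59) and siDual (0.51), calls lost against siNT1 alone (0.35 and 0.27) and in 3 fits each that left out 1 library. Its neighbour IFI44L was at 4.502, 3.17, 3.01 and 3.59 CPM in the controls and 5.61 and 3.35 in siMECOM, with overlap. IFI44L fell in siDual (-0.61), a call lost against siNT2 alone (-0.50) and in 3 fits that left out 1 library.

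The ADP-ribosyltransferase genes PARP9 and PARP14 moved differently. PARP9, which acts in a complex with DTX3L, held 56.4, 51.02, 53.1 and 50.3 CPM in the controls and rose by 0.39 ± 0.08, 0.42 ± 0.08 and 0.53 ± 0.08 in siPAX8, siSOX17 and siMECOM. It also rose in siDual (0.33 ± 0.08), a call lost without siDual replicate 1 (0.24). PARP14 held 59.2, 57.9, 61.7 and 62.4 CPM in the controls, 100.3 and 98.99 in siWT1 and 40.5 and 41.4 in siDual. It rose in siWT1 (0.73 ± 0.07, adjusted p = 9.92e-08) and fell in siDual (-0.56 ± 0.07, adjusted p = 1.9e-06), with no overlap in either. It also fell in siPAX8 (-0.32 ± 0.07) and rose in siMECOM (0.32 ± 0.07), the latter a call lost without siMECOM replicate 2 (0.26). TRIM22, a ubiquitin ligase that restricts viral transcription, held 1.91, 1.31, 1.503 and 1.54 CPM in the controls. It held 0.9701 and 0.531 CPM in siSOX17, 0.639 and 0.608 in siDual and 3.11 and 2.11 in siWT1. It fell 2.498-fold in siDual (-1.32 ± 0.29, adjusted p = 0.000781) and 2.06-fold in siSOX17 (-1.04 ± 0.29), the latter a call lost without siSOX17 replicate 2 (-0.68). It rose in siWT1 (0.74 ± 0.22), a call lost without siNT1 replicate 2 (0.61) and without siWT1 replicate 1 (0.43). EPSTI1 rose in siMECOM from 31.8, 28.3, 27.4 and 27.7 to 47.3 and 42.7 CPM (0.64 ± 0.09) and fell in siWT1 to 21.2 and 19.8 (-0.49 ± 0.09). XAF1, a gene linked to apoptosis, rose in siMECOM by 0.44 ± 0.11, a call lost without siMECOM replicate 1 (0.33). It fell in siDual (-0.44 ± 0.12), a call lost without siDual replicate 2 (-0.37). Of its exon bases, 38.3% overlap a transcript on the opposite strand.

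Many members lie next to each other: 29 of the 45 fall into 11 groups of genes less than 500000 bases apart. Some neighbours had opposite signs in the same libraries, and the pairs given were chosen after their values were seen. In the GBP group of chromosome 1 (hg38 89006666 to 89386461), GBP3 and GBP1 at the low-coordinate end rose in siSOX17 while GBP5 fell and GBP6, the next gene along and no member of the list, rose (2.53 ± 0.41, from 27 counts in 4 libraries to 65 in 2). HERC6 and HERC5 on chromosome 4, 14005 bases apart, had log2 fold changes of 0.71 ± 0.11 and -0.83 ± 0.12 in siSOX17. PARP9 and DTX3L share a start region on chromosome 3, and in siPAX8 PARP9 had 0.39 ± 0.08 and DTX3L -1.16 ± 0.08 (adjusted p = 3.23e-10). The CMPK2 and RSAD2 starts overlap by 830 bases, and the log2 fold changes in siSOX17 were -1.07 ± 0.23 and 1.15 ± 0.21. SAMD9 and SAMD9L, 12031 bases apart, instead had the same sign in siPAX8, siSOX17, siDual and siMECOM.

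**Figure D4:**
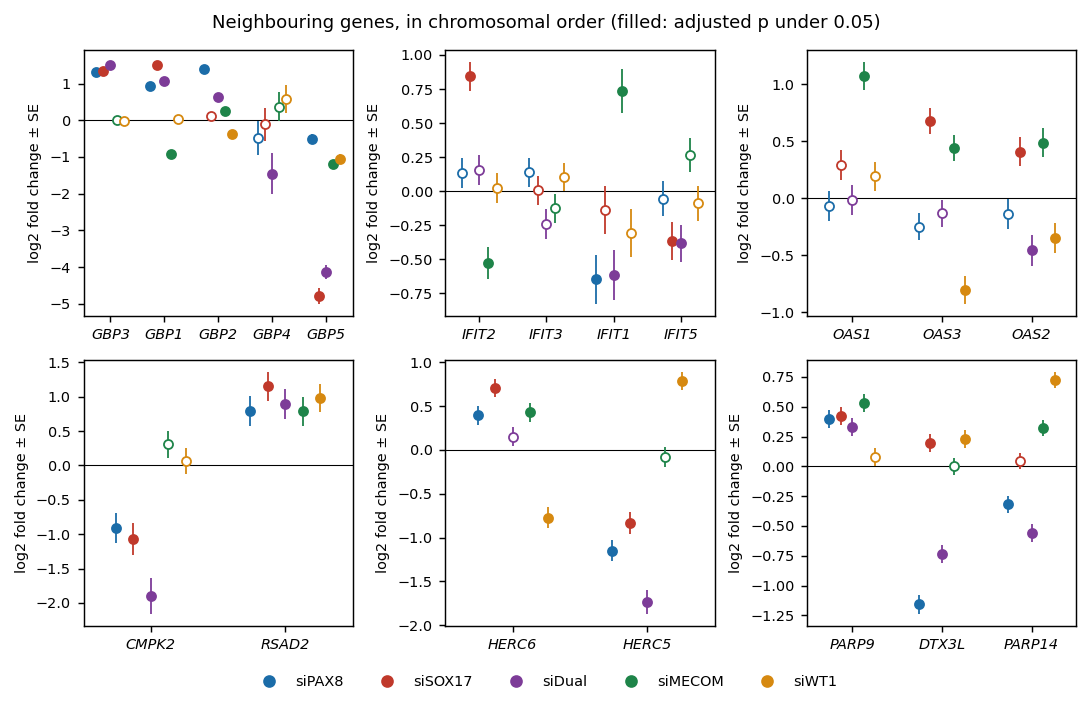
Log2 fold change ± SE against the 4 control libraries for neighbouring members in chromosomal order (DTX3L is no member), coloured by knockdown; filled points have an adjusted p under 0.05. Neighbours such as CMPK2 and RSAD2, HERC6 and HERC5, and GBP1 and GBP5 lie on opposite sides of 0 in siSOX17.

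Direct comparisons between knockdowns did not take the controls as reference, though the model behind them was fitted to all 14 libraries, the controls included. Between siPAX8 and siSOX17, 2 members were higher and 14 lower in siPAX8, together 35.6% of the members, beside 37.3% of all genes tested (17.6% higher and 19.8% lower). GBP5 (4.29 ± 0.23) and GBP2 (1.28 ± 0.10) were the 2 higher in siPAX8, and 5 were higher without siSOX17 replicate 1. IFI35 (-1.03 ± 0.11), OAS3 (-0.93 ± 0.14), IFIT2 (-0.71 ± 0.13) and USP18 (-0.65 ± 0.13) were among the lower. Against siSOX17, siMECOM had 16 members higher and 8 lower (48.4% of all genes called, 24.5% higher and 23.9% lower). TRIM22 (1.54 ± 0.31) and CMPK2 (1.37 ± 0.25) were higher beside GBP5 (3.58 ± 0.24), and GBP1 (-2.41 ± 0.09), IFIT2 (-1.37 ± 0.13) and GBP3 (-1.34 ± 0.11) lower. Against siSOX17, siWT1 had 8 higher and 19 lower (57.8% of all genes called, 28% higher and 29.8% lower). SAMD9L (-2.18 ± 0.15), OAS3 (-1.48 ± 0.14) and HERC6 (-1.48 ± 0.13) were among the lower, and GBP5 (3.74 ± 0.24), TRIM22 (1.78 ± 0.30) and HERC5 (1.62 ± 0.13) among the higher. Without siSOX17 replicate 2, 5 members were higher in siWT1 in place of 8. These 3 comparisons share the siSOX17 libraries.

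The group given both pools was also compared with each single pool. Between siDual and siPAX8, 3 members were higher and 7 lower in siDual (22.2% of the members, beside 19.6% of all genes, 11% higher and 8.55% lower), among them GBP5 (-3.63 ± 0.21) and GBP2 (-0.77 ± 0.10). Leaving out any 1 library of these 2 groups left 3 to 5 calls in place of 10: 4 without siPAX8 replicate 1, 5 without siPAX8 replicate 2, 3 without siDual replicate 1 and 5 without siDual replicate 2. With no filter on low counts, 11 were lower in place of 7. Between siDual and siSOX17, 1 member was higher and 15 lower, 35.6% of the members beside 15.7% of all genes (7.85% higher and 7.82% lower). GBP2 was the 1 higher (0.51 ± 0.10), and 3 were higher without siSOX17 replicate 1. Among the lower were HERC5 (-0.902 ± 0.16), OAS2 (-0.86 ± 0.15), OAS3 (-0.81 ± 0.14), XAF1 (-0.697 ± 0.14) and IFIT2 (-0.69 ± 0.13). The median of the members was -0.31 there and that of all genes 0.01.

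The siDual response was also set against the sum of the single responses on the log2 scale (the siDual fold change less the 2 single fold changes), which is 0 if the pools add. Of the 45 members, 18 lay below the sum and 2 above it, beside 13% and 12% of all genes (25.1% together). The median was -0.37 for the members and 0.01 for all genes. SAMD9L had single responses that summed to 3.51, against 1.91 in siDual (difference -1.605 ± 0.19, adjusted p = 4.26e-06). GBP1 (-1.37 ± 0.12, adjusted p = 9.42e-08) and GBP3 (-1.16 ± 0.14, adjusted p = 5.87e-06) also lay below their sums. GBP1 itself was lower in siPAX8 than in siSOX17 (-0.56 ± 0.09) and lower in siDual than in siSOX17 (-0.43 ± 0.09), the latter a call lost without siDual replicate 1 (-0.30). HERC6 (-0.95 ± 0.17), IFIH1 (-0.94 ± 0.12), GBP2 (-0.896 ± 0.13), BST2 (-0.89 ± 0.19) and IFIT2 (-0.82 ± 0.17) followed. GBP5 lay above the sum (1.16 ± 0.37, adjusted p = 0.0268), a call lost against siNT2 alone (0.97), without siSOX17 replicate 2 (0.79) and without siDual replicate 2 (0.86). Without siDual replicate 2, 12 members were called, all below the sum, and without siSOX17 replicate 2 none was above it. PAX8 RNA had -1.98 in siDual and -2.52 in siPAX8, and its part in these differences was not tested.

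**Figure D5:**
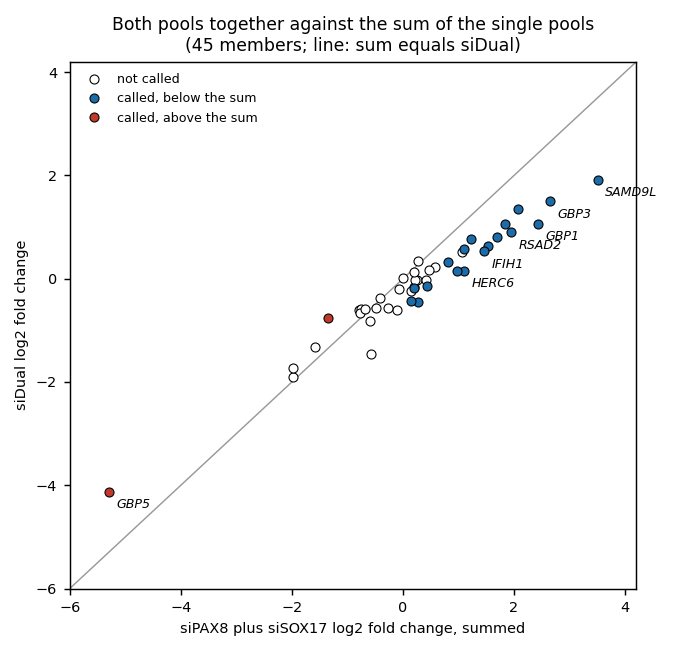
Log2 fold change of each member in siDual (vertical) against the sum of its siPAX8 and siSOX17 log2 fold changes (horizontal), all against the same 4 control libraries. The line marks equality; the 18 blue points were called below the sum, with SAMD9L at 3.51 against 1.91, and the 2 red points above it.

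A list of 92 other genes of the pathway was also followed, of which 74 were tested. The 14 interferon ligand genes held 10 counts together in the 4 control libraries, and 20, 8, 17, 16 and 4 in the 2 libraries of siPAX8, siSOX17, siDual, siMECOM and siWT1, and none passed the filter. Of the 11 genes for receptors and signal transducers, 9 rose and 1 fell in each of siPAX8, siSOX17 and siDual, 4 rose and 3 fell in siMECOM, and 3 rose and 3 fell in siWT1. Of all genes, 26.9 to 28.9% rose and 25.4 to 27.3% fell in the first 3 groups, 16.5% and 16.1% in siMECOM and 17.7% and 19.8% in siWT1. The median log2 fold change of these 11 genes was 0.42 in siPAX8, 0.49 in siSOX17, 0.44 in siDual, 0.05 in siMECOM and 0.02 in siWT1. The receptor chain IL10RB rose in siPAX8 (0.81 ± 0.07), siSOX17 (0.77 ± 0.07), siDual (1.04 ± 0.07) and siMECOM (0.56 ± 0.07), and the kinase TYK2 fell in siPAX8 (-0.99 ± 0.09), siSOX17 (-0.39 ± 0.08), siDual (-0.74 ± 0.09) and siWT1 (-0.82 ± 0.09).

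Of the 15 tested genes of nucleic acid sensing, 4 rose and 4 fell in siPAX8, 5 and 5 in siSOX17, 5 and 6 in siDual, 1 and 5 in siMECOM and 3 and 4 in siWT1. The share of all genes called in either direction was 52.2%, 52.6%, 56.2%, 32.6% and 37.5%, so these counts say little about the class. TLR7, the endosomal sensor of single-stranded RNA, held 4 counts over the 4 control libraries and 81, 62, 112, 5 and 1 over the libraries of siPAX8, siSOX17, siDual, siMECOM and siWT1. It reached 1.44 and 1.305 CPM in siDual and stayed low in absolute terms. The DNA sensor CGAS fell in siPAX8 (-1.39 ± 0.21), siSOX17 (-1.37 ± 0.21) and siDual (-2.24 ± 0.24), and in siMECOM (-0.67 ± 0.19), a call lost against siNT1 alone (-0.53) and without siMECOM replicate 1 (-0.41). STING1, the adaptor it signals through, fell in siMECOM from 212, 222, 230.5 and 259.8 to 93.2 and 83.7 CPM (-1.38 ± 0.10) and also in siSOX17 (-0.85 ± 0.09) and siDual (-0.92 ± 0.09). MAVS, the adaptor of RIG-I and MDA5, fell in siWT1 from 117, 116, 115 and 120.2 to 53.4 and 51.5 CPM (-1.16 ± 0.07, adjusted p = 1.69e-10). Of the 8 brakes on the pathway, 2 rose and 2 fell in siPAX8, 1 and 3 in siSOX17 and 1 and 4 in siDual. In siMECOM 1 rose and 1 fell, and in siWT1 3 rose and 1 fell. The shares of all genes called are the 52.2%, 52.6%, 56.2%, 32.6% and 37.5% given above. The phosphatase gene PTPN1 fell in siWT1 (-1.41 ± 0.07) and rose in siPAX8 (0.39), siSOX17 (0.25) and siDual (0.30).

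Of 40 further interferon-stimulated genes tested, 24 rose and 7 fell in siSOX17, 14 and 12 in siPAX8, 16 and 12 in siDual, 11 and 7 in siMECOM and 11 and 6 in siWT1. The shares of all genes that rose and fell were 27.2% and 25.5% in siSOX17, 26.9% and 25.4% in siPAX8, 28.9% and 27.3% in siDual, 16.5% and 16.1% in siMECOM and 17.7% and 19.8% in siWT1. The median log2 fold change of the 40 genes was 0.34 in siSOX17 and between -0.02 and 0.11 in the other groups. The chemokine gene CCL5 rose in siSOX17 from 0.636, 0.625, 0.822 and 0.836 to 2.76 and 1.88 CPM (1.68 ± 0.20), and it rose in siPAX8 (1.02 ± 0.21) and siWT1 (1.04 ± 0.20). The chemokine gene CXCL10 was at 0.283, 0.293, 0.261 and 0.264 CPM in the controls and 0.0497 and 0.133 in siSOX17 (-1.58 ± 0.56), on 7 counts, a call lost against siNT2 alone (-1.51), with DESeq2 (-1.60) and without siSOX17 replicate 1 (-1.04). APOL1, a lipoprotein-associated lytic factor, fell in siMECOM from 368, 389, 313 and 380.1 to 117 and 119 CPM (-1.62 ± 0.09, adjusted p = 1.64e-10), and it fell in siWT1 (-0.77 ± 0.09).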

How the data were processed

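RNA of the 14 OVCAR4 libraries was sequenced on a BGI platform, per the labels' protocols. The authors deposited raw read counts per gene, made with STAR 2.5.1b, featureCounts 1.6.3 and hg38, per the submitters' processing notes. The annotation release, strand setting and read filters are not given in the sources used here. The deposited table also gives a gene length, used here for RPKM. Of 58219 identifiers, 57878 matched GENCODE 29 symbols, and 0 sample columns were left unused.

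Counts were tested in R 4.3.3 with edgeR 4.0.16 (limma 3.58.1), with trimmed-mean-of-M-values scaling, filterByExpr (minimum count 10, minimum total 15), 1 model over the 7 groups with 7 residual degrees of freedom, quasi-likelihood tests and Benjamini-Hochberg adjustment over 21032 genes. The biological coefficient of variation was 7.57%. The controls were the mean of siNT1 and siNT2. Alternatives were DESeq2 1.42.0, no filter, a minimum mean CPM of 1, either control pool alone, only the groups compared, no mitochondrial genes, replicate as a block, and each library left out, where a lone library is assumed to vary like the other groups. On simulated counts for siSOX17 against the controls (19928 genes), the test recovered 71% of 2-fold and 95% of 4-fold changes, with 7 false calls. The simulation changed only a small set of genes, in siSOX17 alone. In the data 52.6% of all genes were called there, so these rates need not hold for the data.

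Members and lists were chosen with earlier results of these data known. Values per library are given for members that changed at least 2-fold against the controls or are among the 5 highest per length, and for others where a result turns on them. Of the pathway lists, at most 2 called rises and 2 called falls per class and comparison are named, and some of these genes are not reported here. Promoters are of members that hold the response element core and changed at least 2-fold.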

Additional observations from a re-analysis of the deposited data

Results flagged for a closer look

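For 20 of the 45 genes the siDual response differed from the sum of the single responses, beside 25.1% of all genes tested. This was the interaction term of edgeR's quasi-likelihood test (adjusted p under 0.05). The labels do not say how the siDual dose was divided between the pools, and its part in these differences was not tested. The log2 difference of siDual from the sum of the single responses was -1.605 for SAMD9L, -1.37 for GBP1, -1.16 for GBP3, -1.05 for RSAD2, -0.95 for HERC6, -0.94 for IFIH1 and -0.896 for GBP2. It was -0.89 for BST2, -0.82 for IFIT2, -0.78 for DDX60L, -0.73 for OAS2, -0.73 for SAMD9 and -0.59 for XAF1. It was -0.56 for OAS3, -0.52 for ISG15, -0.48 for PARP9, -0.45 for IFI27 and -0.37 for IRF1. USP18 (0.58) and GBP5 (1.16) were the 2 above the sum. Of these 20 genes, 11 passed in every fit that left out 1 library: SAMD9L, GBP1, GBP3, HERC6, IFIH1, GBP2, BST2, IFIT2, DDX60L, SAMD9 and PARP9. The calls of the other 9 were lost as follows: GBP5 against siNT2 alone (0.97), without siSOX17 replicate 2 (0.79) and without siDual replicate 2 (0.86), USP18 against siNT1 alone (0.45), without siPAX8 replicate 2 (0.47), without siSOX17 replicate 2 (0.41) and without siDual replicate 2 (0.57), RSAD2 without siPAX8 replicate 2 (-0.85), without siSOX17 replicate 1 (-0.81) and without siDual replicate 2 (-0.67), OAS2 against siNT1 alone (-0.55), without siPAX8 replicate 2 (-0.63) and without siDual replicate 2 (-0.60), XAF1 against siNT2 alone (-0.53), without siPAX8 replicate 1 (-0.55), without siSOX17 replicate 1 (-0.56) and without siDual replicate 2 (-0.51), OAS3 against siNT1 alone (-0.33), without siPAX8 replicate 2 (-0.41), without siSOX17 replicate 2 (-0.43), without siDual replicate 1 (-0.58) and without siDual replicate 2 (-0.54), ISG15 against siNT1 alone (-0.41), with DESeq2 (-0.53), without siNT1 replicate 2 (-0.44), without siNT2 replicate 1 (-0.45), without siPAX8 replicate 1 (-0.39), without siSOX17 replicate 1 (-0.46), without siSOX17 replicate 2 (-0.58) and without siDual replicate 2 (-0.41), IFI27 against siNT1 alone (-0.34) and without siSOX17 replicate 1 (-0.27) and IRF1 with no filter on low counts (-0.38), against siNT2 alone (-0.29), without siNT1 replicate 2 (-0.36), without siNT2 replicate 1 (-0.32), without siPAX8 replicate 2 (-0.33), without siSOX17 replicate 1 (-0.30), without siDual replicate 1 (-0.36) and without siDual replicate 2 (-0.37).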

How the results depend on the processing

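Of 248 called member values, 164 kept their call under every alternative and 84 lost it under at least 1. Over 3425 refits, 3196 kept direction and call, 229 lost the call and 0 reversed. Values that were not called were not followed. Leaving out 1 library gave 23 to 29 members called in siPAX8, 24 to 27 in siSOX17, 23 to 33 in siDual, 23 to 32 in siMECOM and 15 to 20 in siWT1. It gave 0 to 1 for siNT1 against siNT2, 3 to 5 for siDual against siPAX8, 12 to 19 for siDual against siSOX17, 14 to 18 for siPAX8 against siSOX17, 22 to 26 for siMECOM against siSOX17, 25 to 30 for siWT1 against siSOX17 and 12 to 22 for the departure from the sum. For siNT1 against siNT2, no filter gave 2. The labels do not say that a replicate number marks a shared batch. Over 21 pairs of groups and 15648 genes, the correlation of same-numbered deviations was -0.10 to 0.49 (median 0.16) and over 0.1 in 13, not in all, so the block was kept as an alternative; partial pairing was not tested further. With replicate as a block, the members called were 30, 29, 33, 34 and 21 in siPAX8, siSOX17, siDual, siMECOM and siWT1, and 1 for siNT1 against siNT2. With 2 libraries a group, the spread rests on 7 residual degrees of freedom, and members of few counts, such as GBP4, are limited by depth.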
